A study of Mus musculus with 38 samples.

Results

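The genes described here were 10 endothelial and blood-brain barrier genes, Cldn5, Pecam1, Cdh5, Flt1, Kdr, Slco1a4, Abcb1a, Slc2a1, Mfsd2a and Tek, out of 48709 genes counted in the mouse hippocampus. They were listed by their function in brain vessels and found by their Ensembl identifiers. RNA was sequenced from the hippocampus of 38 C57BL/6 mice in 8 groups, with a library for each mouse. The APPPS1ΔE9 line carries an APP transgene with the Swedish mutation and a presenilin 1 transgene lacking an exon, which are known to be driven by a mouse prion protein promoter, and wild-type (WT) mice served as controls. anle138b, a diphenylpyrazole that modulates protein aggregates, was given in the chow for the 4 months before the tissue was taken, and the placebo chow lacked it. At 6 months of age there were 4 WT mice on placebo, 4 WT mice on anle138b, 4 APPPS1ΔE9 mice on placebo and 4 APPPS1ΔE9 mice on anle138b. At 10 months there were 5, 5, 5 and 7 mice in the same order. The 2 ages were separate cohorts.

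The blood-brain barrier is formed by the endothelial cells of brain vessels, which are sealed to each other by tight junctions, take up little by vesicles and move nutrients and drugs through carriers and pumps. VEGF receptors and the angiopoietin receptor TIE2 set vessel growth and stability, and cadherins hold the cells together. Pericytes, astrocyte endfeet and a basement membrane surround these cells, so RNA from whole hippocampus holds them as a small part of the tissue. In such bulk samples, fewer endothelial cells and less RNA per endothelial cell cannot be told apart.

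Total counts were between 15847985 and 31895808 per mouse, with a median of 24530658. App, which the transgene adds to, was at 1506 to 1809 CPM (counts scaled to a common library size) in 18 WT mice and at 3228 to 4318 CPM in 20 APPPS1ΔE9 mice. The 4 WT placebo libraries of 6 months carry a second label naming the transgenic genotype, and their App levels were those of WT mice. Xist was above 100 CPM in 12 of 38 mice, 11 of them among the 18 WT mice and 1 among the 20 APPPS1ΔE9 mice, although the methods name male mice. The 8 hippocampal neuron markers summed to between 9450 and 12686 CPM in every mouse. Single ones varied more, Prox1 from 46.8 to 205 CPM and Wfs1 from 51.0 to 204 CPM. The 7 oligodendrocyte markers summed to 4815.5 to 6292 CPM at 6 months and to 2328 to 7421 CPM at 10 months. The 8 choroid plexus markers, Ttr among them, summed to 36.3 to 8023 CPM, with at least 1000 CPM in 10 of 16 mice of 6 months and in 1 of 22 mice of 10 months. Lanes differed between groups, and no lane held both genotypes on the same chow at the same age.

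Start-site sequences are shown for 4 of the genes, the pair of VEGF receptors Flt1 and Kdr, the transporter Slco1a4 and the tight junction gene Cldn5, because their levels took different courses between mice and between ages. RefSeq promoters (GRCm38.p6, 250 bases before to 50 after the start) matched 8 of the 10 genes, all but Pecam1 and Cdh5. Capitals mark GGAA or its reverse complement TTCC, the core of sites for ETS factors, a family known for activating endothelial genes.

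Flt1 (chr5:147725962-147726261, minus strand): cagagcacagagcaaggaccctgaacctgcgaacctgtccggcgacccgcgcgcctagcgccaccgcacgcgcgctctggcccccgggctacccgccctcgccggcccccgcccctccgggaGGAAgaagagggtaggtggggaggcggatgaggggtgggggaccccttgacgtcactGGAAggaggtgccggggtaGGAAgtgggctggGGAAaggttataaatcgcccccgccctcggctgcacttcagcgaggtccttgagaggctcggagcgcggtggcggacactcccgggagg

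Kdr (chr5:75978406-75978705, minus strand): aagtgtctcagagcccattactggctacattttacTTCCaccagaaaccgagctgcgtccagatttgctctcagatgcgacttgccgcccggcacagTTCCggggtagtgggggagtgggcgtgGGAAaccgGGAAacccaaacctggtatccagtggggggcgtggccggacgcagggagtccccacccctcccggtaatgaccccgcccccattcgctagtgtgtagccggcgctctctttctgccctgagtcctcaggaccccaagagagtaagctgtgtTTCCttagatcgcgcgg

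Slco1a4 (chr6:141856171-141856470, minus strand): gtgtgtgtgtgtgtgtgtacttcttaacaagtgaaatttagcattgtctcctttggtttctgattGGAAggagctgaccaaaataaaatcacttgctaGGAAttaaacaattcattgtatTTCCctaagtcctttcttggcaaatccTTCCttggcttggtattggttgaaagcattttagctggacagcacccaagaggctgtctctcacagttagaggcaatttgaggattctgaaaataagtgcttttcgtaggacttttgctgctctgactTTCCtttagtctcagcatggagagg

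Cldn5 (chr16:18776597-18776896, plus strand): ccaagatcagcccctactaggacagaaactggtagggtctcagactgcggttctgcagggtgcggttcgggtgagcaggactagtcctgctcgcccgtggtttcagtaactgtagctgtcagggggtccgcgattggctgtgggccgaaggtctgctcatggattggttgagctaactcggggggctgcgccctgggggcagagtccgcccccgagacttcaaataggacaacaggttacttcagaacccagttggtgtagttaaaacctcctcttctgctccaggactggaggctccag

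GGAA on either strand was found 4 times in the Flt1 window, 5 times in the Kdr window, 5 times in the Slco1a4 window and 0 times in the Cldn5 window. It was in 6 of the 8 matched genes and in 95.9% of 27025 promoters of the same length, so its presence is the rule. The longer form CCGGAA was in 1 of the 8 (Kdr) and in 15.2% of all promoters. A GC box (GGGCGG, either strand) was in 4 of the 8, Cldn5, Flt1, Kdr and Slc2a1, and in 35.9% of all promoters. TATAAA was in 2 of the 8, Flt1 and Slc2a1 (14.2% of all), and AACAAT, the core of SOX sites, was in 2 of the 8, Slco1a4 and Tek (10.9% of all). The Flt1 window was 70.7% G and C, against 40.7% in the Slco1a4 window. The RefSeq start of Abcb1a lies 92986 bases upstream of the start of the annotation used for the counts' gene names, and its window is not shown.

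All 10 genes passed the filter on low counts in every comparison. The lowest count of any of them in any mouse was 130 (Cdh5) and the highest was 2955 (Slc2a1). Within groups, the CPM of a gene varied between mice with a coefficient of variation of 8.11% (Flt1) to 18.3% (Kdr), while counting error alone gives 2.64% and 5.02% for these genes. For the other 8 genes too, the variation between mice exceeded the counting error.

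Levels between genes were compared as CPM per kb of exon. The glucose carrier Slc2a1 (GLUT1) was highest, at 22.5 ± 3.41 CPM per kb (mean ± SD, n = 38), and lay above the next gene in 38 of 38 mice. The tight junction protein Cldn5 (claudin-5) followed at 13.5 ± 2.39 CPM per kb, above the next gene in 37 of 38 mice. The organic anion carrier Slco1a4 was at 7.78 ± 1.07 CPM per kb and the lipid carrier Mfsd2a, which is known to hold down transcytosis, at 6.82 ± 1.12 CPM per kb. Slco1a4 was above Mfsd2a in 29 of 38 mice, so their ranges overlapped. The drug efflux pump Abcb1a (P-glycoprotein) was at 4.74 ± 0.704 CPM per kb and Flt1 (VEGF receptor 1, which also acts as a decoy for VEGF) at 4.36 ± 0.621 CPM per kb, and this pair too overlapped. Tek (the angiopoietin receptor TIE2), Pecam1 (CD31) and Cdh5 (VE-cadherin) lay together at 2.90 ± 0.319, 2.79 ± 0.302 and 2.74 ± 0.411 CPM per kb, with Pecam1 above Cdh5 in 17 of 38 mice. Kdr (VEGF receptor 2, the main signalling receptor for VEGF) was lowest at 1.80 ± 0.315 CPM per kb and lay below Cdh5 in 38 of 38 mice. With the longest transcript as the length, Flt1 was at 8.54 ± 1.22 CPM per kb, past Mfsd2a and Abcb1a, and Pecam1 at 5.05 ± 0.547 CPM per kb, apart from Tek (2.94) and Cdh5 (2.88). Slc2a1, Cldn5, Slco1a4 and Kdr kept their ranks, but Cldn5 (13.5) and Slco1a4 (13.1) were then nearly equal, as were Cdh5 and Kdr (2.74). Abcb1a and Slc2a1 share exon bases with genes on the opposite strand (Gm42686 and Gm12868), and whether the counting used strand is not given in the sources used here. Abcb1b, a gene related to Abcb1a, was at 5.19 ± 0.950 CPM (n = 38) against 25.9 CPM for Abcb1a. Whether reads that fit both genes affected these values was not tested.

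**Figure D1:**
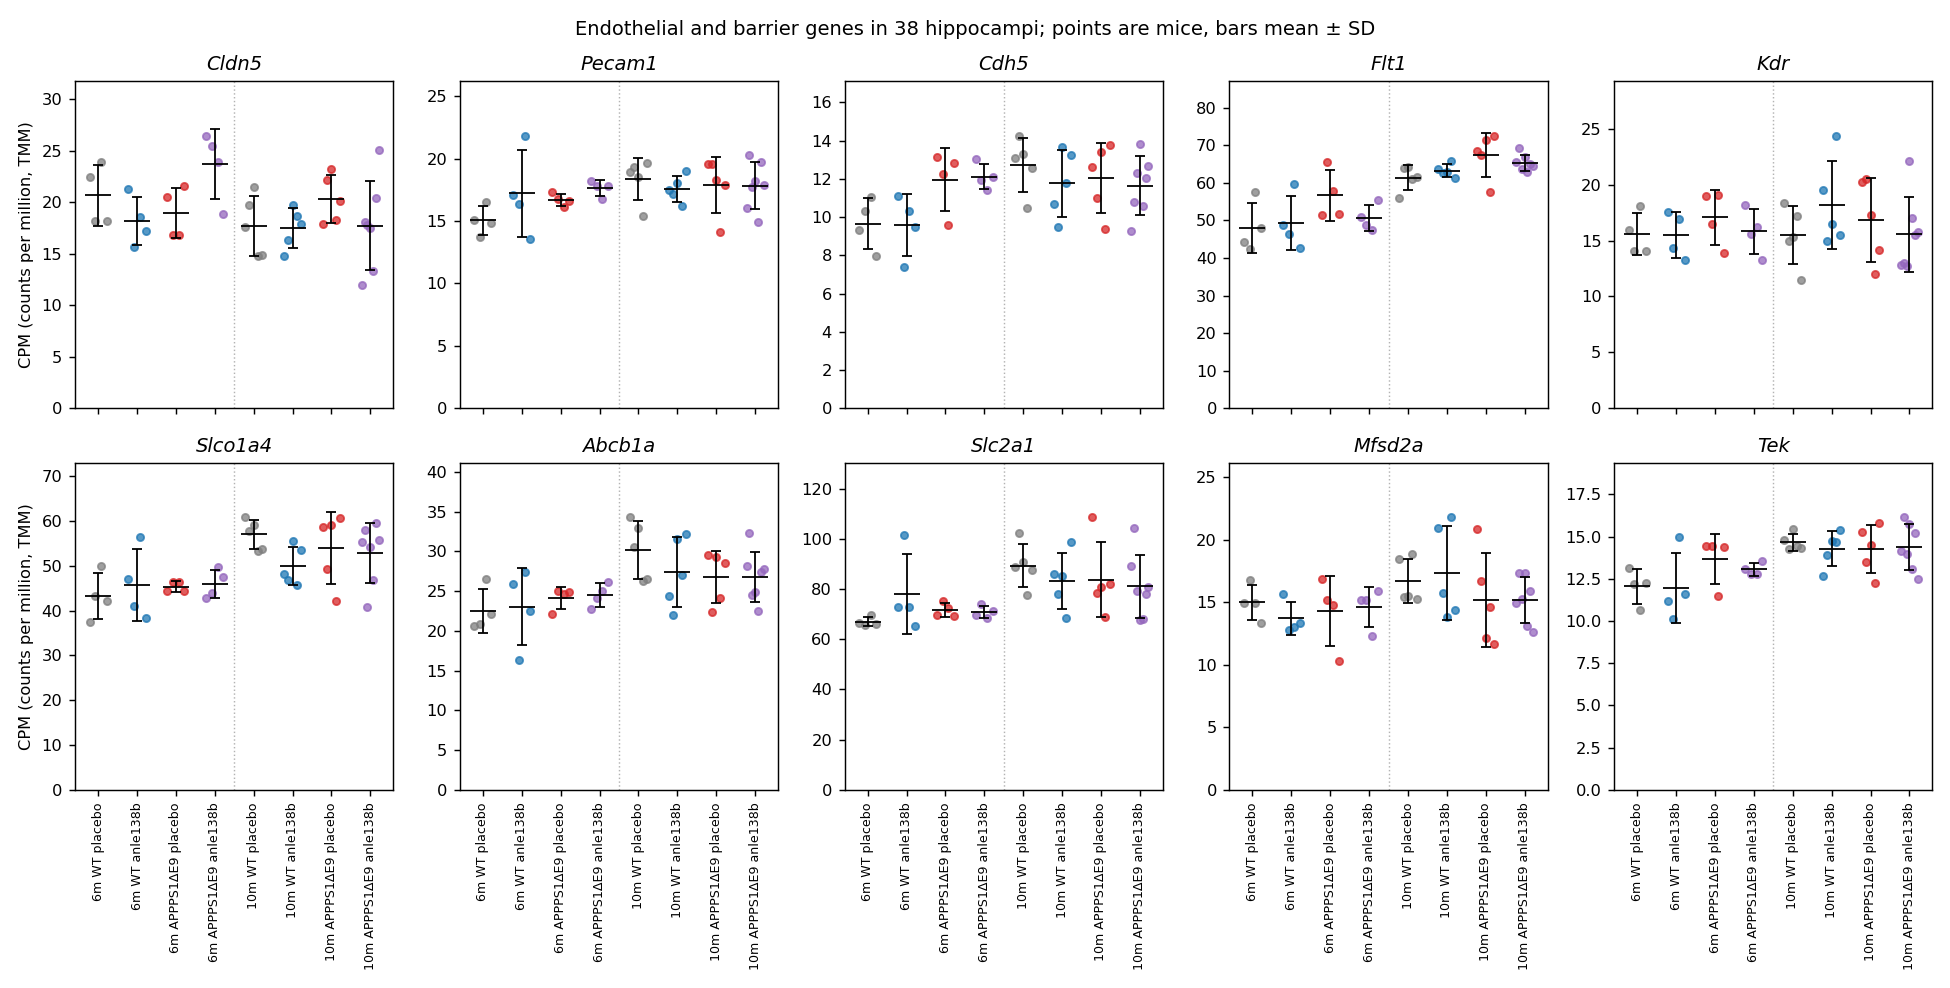
CPM (y axis, TMM normalized, starting at 0) of the 10 genes in the 8 groups (x axis); each point is a mouse and bars give mean ± SD. For Flt1, the 22 mice of 10 months, right of the dotted line, sit between 56.01 and 72.6 CPM, and 12 of the 16 mice of 6 months lie below all of them.

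The first question was whether the APPPS1ΔE9 genotype or the anle138b chow came with a different level of these genes. None of the 10 passed the threshold of a Benjamini-Hochberg adjusted p under 0.1 over all genes (edgeR's quasi-likelihood test) in any of the 8 comparisons of 2 groups. DESeq2 also called 0 of the 10 in each of the 8. For genotype, 2 of the 10 had an unadjusted p under 0.05 at 6 months on placebo, 2 at 6 months on anle138b, 0 at 10 months on placebo and 0 at 10 months on anle138b. Over all genes, 11.1%, 5.64%, 4.1% and 5.78% had an unadjusted p under 0.05 in these 4 comparisons, and 0.0715%, 0.047%, 0.324% and 0.723% were called. For chow, 0 of the 10 had an unadjusted p under 0.05 in WT mice of 6 months, 1 in WT mice of 10 months, 1 in APPPS1ΔE9 mice of 6 months and 0 in APPPS1ΔE9 mice of 10 months. In the same order, 1.85%, 1.25%, 13.1% and 1.48% of all genes had an unadjusted p under 0.05, and 0.0%, 0.0%, 0.0529% and 0.0% were called. The gene in WT mice of 10 months was Slco1a4 (-0.19 ± 0.07, unadjusted p = 0.016, adjusted p = 1.0). Fold changes of the 10 genes ran from 0.855 to 1.31 for genotype and from 0.876 to 1.25 for chow, and their 95% intervals together spanned 0.675 to 1.57 for genotype and 0.690 to 1.49 for chow. With lane as a term, the log2 difference for chow at 10 months moved to -0.77 for Cldn5 in APPPS1ΔE9 mice and to 0.66 for Kdr in WT mice, neither of them called. Those fits rest on lanes in which 1 mouse of one chow was run beside the other chow.

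Cldn5, which seals the barrier's tight junctions, was the member with the largest single difference. In APPPS1ΔE9 mice of 6 months on anle138b its level was 26.5, 25.5, 23.97 and 18.9 CPM. In WT mice on the same chow it was 21.3, 15.7, 18.6 and 17.2 CPM, so that 3 of the 4 APPPS1ΔE9 mice lay above all 4 WT mice. The log2 difference was 0.39 ± 0.12 (SE), with an unadjusted p of 0.0084 and an adjusted p of 0.81 (edgeR). On placebo, APPPS1ΔE9 mice of 6 months were at 20.5, 16.9, 16.9 and 21.6 CPM and WT mice at 22.5, 18.2, 23.95 and 18.2 CPM. These groups overlapped and the log2 difference had the other sign, -0.13 ± 0.11. The contrast between the 2 chow effects, that is the interaction of genotype and chow at 6 months, was 0.52 ± 0.18 on the log2 scale (95% interval 0.14 to 0.90), with an unadjusted p of 0.011 and an adjusted p of 0.62. In APPPS1ΔE9 mice alone, anle138b against placebo gave 0.32 ± 0.12 (adjusted p = 0.34, edgeR). The 3 APPPS1ΔE9 mice on anle138b with the highest Cldn5 had choroid plexus marker sums of 6083 to 7538 CPM and the one with the lowest had 176 CPM. In WT mice on anle138b the order differed. The sums were 8023, 7001.5, 6741 and 263 CPM, in the order of the levels above, so the lowest Cldn5 came with 7001.5 CPM. At 10 months, the APPPS1ΔE9 mouse on anle138b with a sum of 4387 CPM had Cldn5 at 13.4 CPM. With the choroid plexus sum as a covariate, the interaction was 0.41 ± 0.16 (adjusted p = 0.62). At 10 months, Cldn5 ranged from 14.8 to 21.5 CPM in WT mice on placebo and from 17.9 to 23.3 CPM in APPPS1ΔE9 mice on placebo, and the interaction was -0.18 ± 0.21 on the log2 scale (adjusted p = 0.99).

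Cdh5, the cadherin of endothelial adherens junctions, had values that did not overlap between genotypes in one comparison. In mice of 6 months on anle138b, APPPS1ΔE9 levels were 13.02, 11.95, 11.4 and 12.1 CPM and WT levels were 11.1, 7.40, 10.3 and 9.50 CPM. Each APPPS1ΔE9 mouse thus lay above each WT mouse. This was so for 1 of the 10 genes, while 3.33% of all genes tested did not overlap in either direction there. The log2 difference was 0.34 ± 0.11, with an unadjusted p of 0.012 and an adjusted p of 0.84 (edgeR). On placebo at 6 months, APPPS1ΔE9 mice were at 13.2, 12.2, 9.59 and 12.9 CPM and WT mice at 9.32, 10.3, 11.1 and 7.96 CPM, where 1 APPPS1ΔE9 mouse lay among the WT mice. That difference was 0.31 ± 0.12 (adjusted p = 0.41). At 10 months the log2 difference was -0.09 on placebo and -0.02 on anle138b. The change in the genotype effect from 6 to 10 months on placebo was -0.40 ± 0.18 (unadjusted p = 0.044, adjusted p = 0.80).

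Flt1 was the member closest to the threshold when all 38 mice entered a single contrast of genotype. At 6 months on placebo, APPPS1ΔE9 mice were at 51.4, 65.6, 57.8 and 51.8 CPM and WT mice at 44.4, 42.4, 57.5 and 48.1 CPM. At 10 months on placebo, APPPS1ΔE9 mice were at 68.4, 67.4, 71.4, 57.6 and 72.6 CPM and WT mice at 56.01, 64.1, 64.2, 60.96 and 61.5 CPM. In both cohorts most APPPS1ΔE9 mice on placebo were above the WT median and the ranges overlapped. On anle138b the log2 differences were smaller, 0.04 ± 0.09 at 6 months and 0.04 ± 0.03 at 10 months, against 0.24 and 0.13 on placebo. Over the 38 mice the log2 difference was 0.11 ± 0.04, a 1.08-fold level (95% interval 0.03 to 0.20 on the log2 scale), with an unadjusted p of 0.0078 and an adjusted p of 0.29 (edgeR). Leaving out a single mouse gave an adjusted p of 0.072 (6 months, WT on anle138b, replicate 3) or 0.081 (6 months, WT on placebo, replicate 3), which are past the threshold. With the level of Y-linked genes as a covariate the difference was 0.06 ± 0.05 (adjusted p = 0.85), and the mice with high Xist were mostly WT, as given above.

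Over the 38 mice, genotype passed the threshold in 0 of the 10 genes, against 1.46% of all genes, with 2 of the 10 (Cdh5 and Flt1) at an unadjusted p under 0.05, against 8.91% of all genes. The median log2 difference of the 10 was 0.03, against -0.004 over all genes. The chow contrast passed it in 0 of the 10, against 0.0% of all genes, with 0 at an unadjusted p under 0.05 (4.81% of all genes), and DESeq2 called 0 of the 10 in both contrasts. Here the intervals were narrow. For anle138b against placebo, the 95% intervals of the 10 genes lay between -0.17 and 0.17 on the log2 scale, and for genotype between -0.22 and 0.27. The interactions of genotype and chow called 0 of the 10 at 6 months and 0 at 10 months (0.0% and 0.0% of all genes), with 1 (Cldn5) and 0 at an unadjusted p under 0.05 (7.99% and 2.3% of all genes). The interaction of genotype and age on placebo also called 0 (0.0% of all genes), with 1 (Cdh5) at an unadjusted p under 0.05 (6.16% of all genes), and DESeq2 called 0 of the 10 in all 3.

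**Figure D2:**
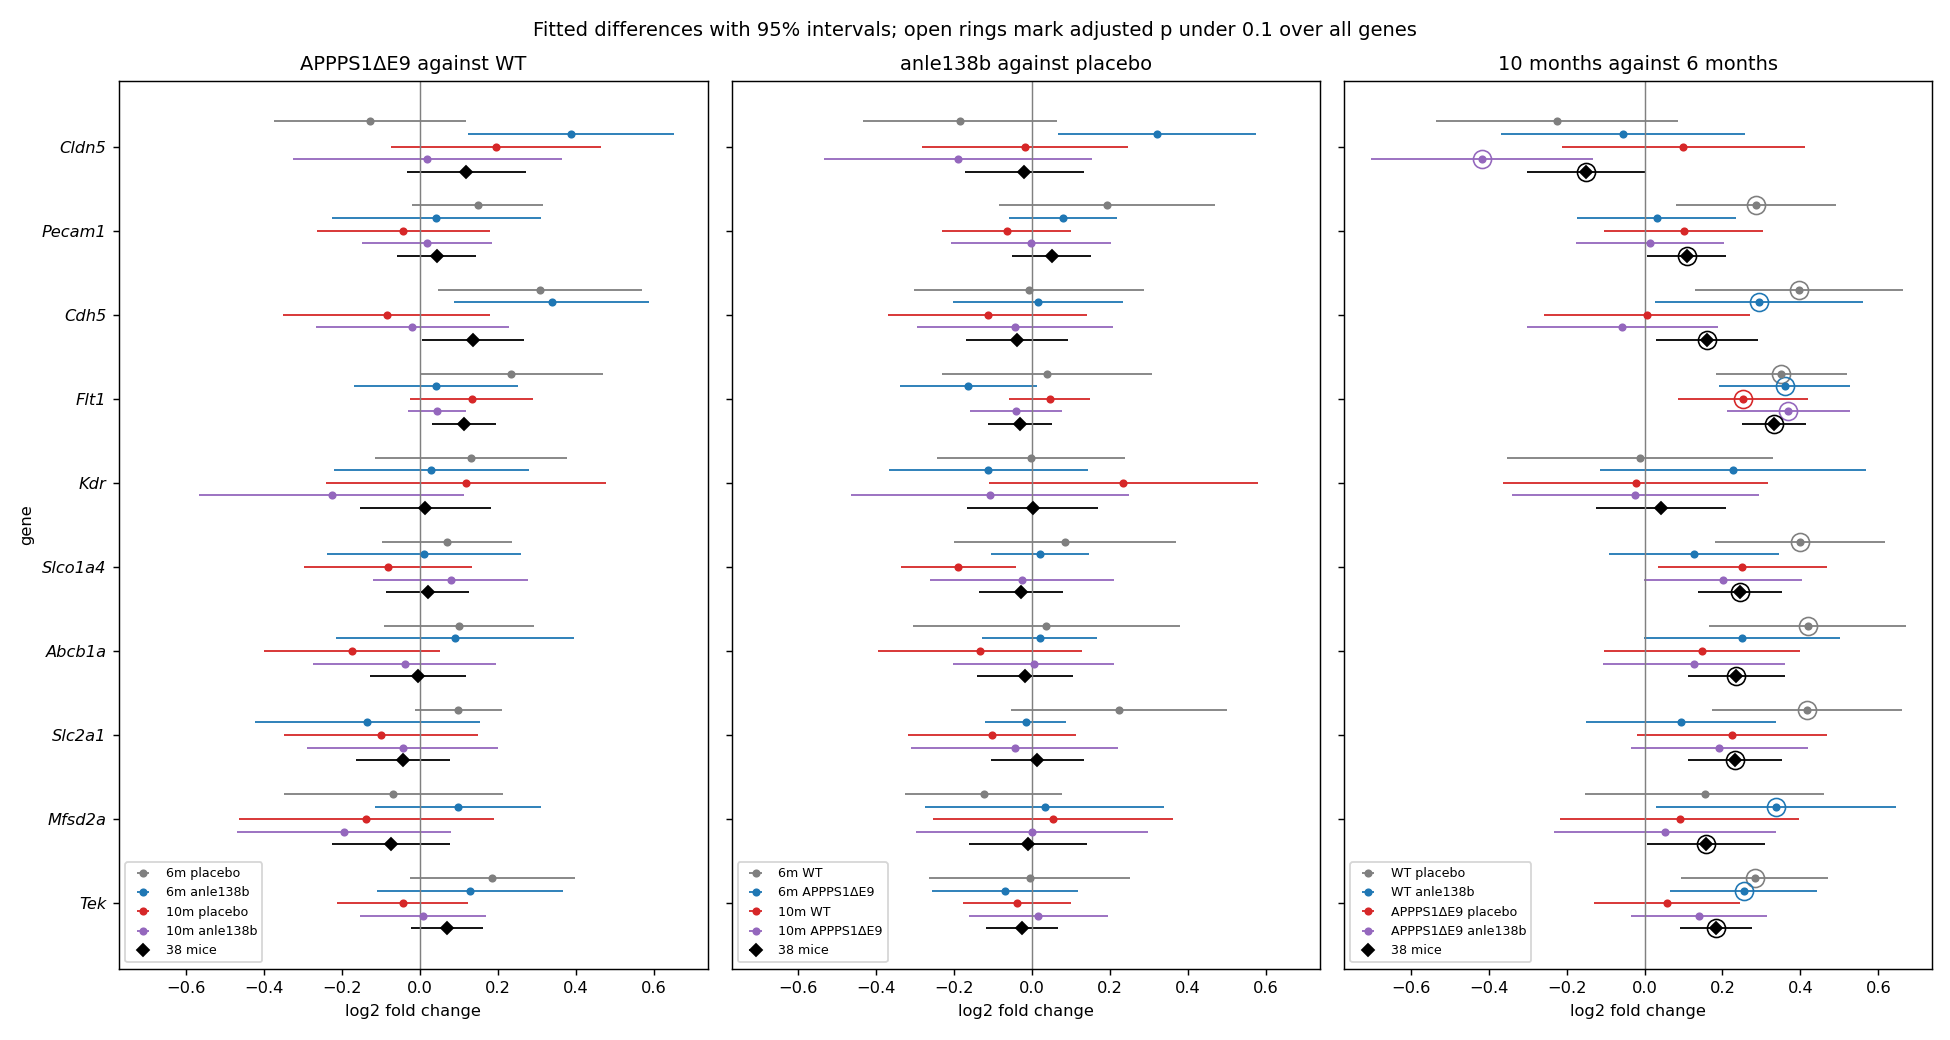
Log2 fold changes (x axis) of the 10 genes (y axis) with 95% intervals, for genotype (left), chow (middle) and age (right), in each stratum and over 38 mice (black diamonds); open rings mark an adjusted p under 0.1 over all genes. Rings appear in the age panel alone, where Flt1 is near 0.33 over 38 mice and Cldn5 is at -0.15.

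The ages differed more. In the contrast of 10 against 6 months over 38 mice, 9 of the 10 genes passed the threshold, 8 higher at 10 months and 1 lower. This has to be read against the whole transcriptome, where 61.8% of all genes were called, 29.7% higher and 32.1% lower. The median log2 difference of the 10 genes was 0.17, against -0.02 over all genes. The ages were separate cohorts with separately sequenced libraries, so age and cohort cannot be told apart.

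Flt1 changed most. It was at 42.4, 49.9 and 65.6 CPM (lowest, median and highest of 16 mice) at 6 months and at 56.01, 64.1 and 72.6 CPM (of 22 mice) at 10 months. Every mouse of 10 months was above the median of 6 months, and 12 of the 16 mice of 6 months were below every mouse of 10 months. The log2 difference was 0.33 ± 0.04, a 1.26-fold level (95% interval 1.19 to 1.33, adjusted p = 2.1e-08, edgeR). It passed the threshold in each of the 4 combinations of genotype and chow, with log2 differences of 0.35 (WT placebo), 0.36 (WT anle138b), 0.25 (APPPS1ΔE9 placebo) and 0.37 (APPPS1ΔE9 anle138b). The other VEGF receptor among the 10 genes was not called. Kdr was at 13.3, 16.1 and 19.1 CPM at 6 months and at 11.5, 15.7 and 24.4 CPM at 10 months, overlapping throughout, with a log2 difference of 0.04 ± 0.08 (95% interval -0.13 to 0.21, adjusted p = 0.68).

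The carriers and the pump were also higher at 10 months. Slco1a4 was at 37.5, 44.4 and 56.5 CPM at 6 months and at 40.7, 54.7 and 60.9 CPM at 10 months, with 20 of 22 mice of 10 months above the median of 6 months (log2 difference 0.24 ± 0.05, adjusted p = 0.00019, edgeR). Abcb1a was at 16.4, 24.4 and 27.4 CPM and at 22.03, 27.6 and 34.3 CPM, with 12 of the 22 mice of 10 months above every mouse of 6 months (0.24 ± 0.06, adjusted p = 0.0014). Slc2a1 was at 65.1, 69.7 and 101 CPM and at 67.5, 81.4 and 108.6 CPM, where 15 of the 16 mice of 6 months lay below the median of 10 months and the exception was WT mouse 39 on anle138b (0.23 ± 0.06, adjusted p = 0.0012). Mfsd2a was less clear. It was at 10.3, 14.9 and 16.9 CPM and at 11.6, 15.5 and 21.8 CPM (0.16 ± 0.07, adjusted p = 0.069), and leaving out 1 mouse ended the call for 5 of the 38 mice.

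Of the surface receptors, Tek was at 10.1, 12.8 and 14.96 CPM at 6 months and at 12.2, 14.5 and 16.2 CPM at 10 months (log2 difference 0.18 ± 0.05, adjusted p = 0.0009, edgeR). The 2 adhesion genes moved less. Cdh5 was at 7.40, 11.1 and 13.2 CPM and at 9.28, 12.4 and 14.3 CPM (0.16 ± 0.06, adjusted p = 0.034), and Pecam1 at 13.5, 16.7 and 21.8 CPM and at 14.1, 18.1 and 20.3 CPM (0.11 ± 0.05, adjusted p = 0.064). In both the ranges of the ages overlapped widely. Cldn5 was the one gene that was lower at 10 months, at 15.7, 19.7 and 26.5 CPM at 6 months and at 11.97, 18.005 and 25.1 CPM at 10 months (-0.15 ± 0.08, adjusted p = 0.090). Its call was lost with DESeq2 (adjusted p = 0.10), without the filter on low counts (adjusted p = 0.17) and when any 1 of 22 of the 38 mice was left out.

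Within the combinations of genotype and chow, the age difference was called higher at 10 months in 7 of the 10 genes in WT placebo mice (17.9% of all genes), in 4 in WT anle138b mice (16.5%), in 1 in APPPS1ΔE9 placebo mice (7.86%) and in 1 in APPPS1ΔE9 anle138b mice (22.5%), where 1 further gene was called lower (20.9% of all genes). Flt1 is in all 4 counts. In WT placebo mice, Slco1a4 was at 37.5, 43.3, 49.9 and 42.2 CPM at 6 months. At 10 months it was at 60.9, 57.9, 59.2, 53.3 and 53.8 CPM. In APPPS1ΔE9 placebo mice it was at 44.5, 46.4, 46.4 and 44.3 CPM and at 58.7, 49.4, 59.1, 42.1 and 60.6 CPM, where 1 mouse of 10 months lay below all 4 of 6 months. The log2 difference was 0.40 ± 0.11 in the former (adjusted p = 0.0051, edgeR) and 0.25 ± 0.11 in the latter (adjusted p = 0.16). The difference between these 2 age differences is the interaction of genotype and age on placebo, which for Slco1a4 was -0.15 ± 0.13 (adjusted p = 0.93). The gene called lower in APPPS1ΔE9 anle138b mice was Cldn5, at 26.5, 25.5, 23.97 and 18.9 CPM at 6 months and at 11.97, 17.8 and 25.1 CPM (lowest, median and highest of 7 mice) at 10 months. Its log2 difference there was -0.42 ± 0.14 (adjusted p = 0.021), and 6 of the 7 mice of 10 months were below 3 of the 4 mice of 6 months. Choroid plexus markers were at 1000 CPM or more in 3 of these 4 mice and in 1 of these 7. Their part in this difference was not tested.

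**Figure D3:**
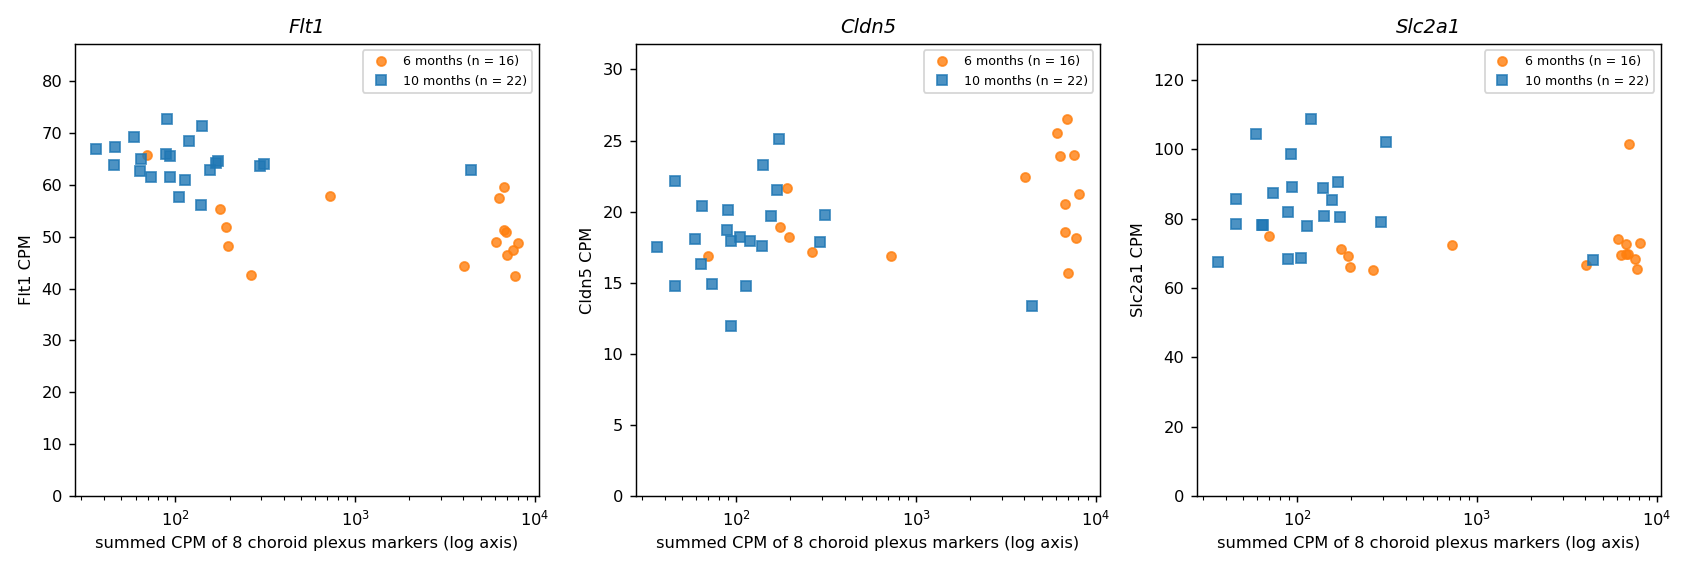
CPM of Flt1, Cldn5 and Slc2a1 (y axes, starting at 0) against the summed CPM of 8 choroid plexus markers (x axis, log scale), 1 point per mouse, 16 mice of 6 months (circles) and 22 of 10 months (squares). Mice of 6 months with few choroid plexus counts have Flt1 between 42.7 and 65.6 CPM, and the 1 mouse of 10 months with many, at 4387 CPM, has Flt1 at 62.9 CPM.

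Choroid plexus markers moved with age more than any other list. All 8 were called lower at 10 months, with a median log2 difference of -3.44, and the medians of their sums were 6183 CPM at 6 months and 99.2 CPM at 10 months. With these markers as a covariate, a setting chosen after seeing the data, 5 of the 10 genes were called, Flt1 (0.29 ± 0.06, adjusted p = 0.00024), Slco1a4 (0.24 ± 0.08, 0.017), Slc2a1 (0.24 ± 0.09, 0.037), Cdh5 (0.22 ± 0.10, 0.070) and Abcb1a (0.20 ± 0.09, 0.093). The 61.8% of all genes given above is from the fit without this covariate, and the share with it is not given here. The call was lost for Tek (0.14 ± 0.07, adjusted p = 0.12), Pecam1 (0.11 ± 0.08, 0.27), Mfsd2a (0.13 ± 0.11, 0.39) and Cldn5 (-0.05 ± 0.11, 0.75). Without the covariate, in the same order, they were at 0.18 ± 0.05, 0.11 ± 0.05, 0.16 ± 0.07 and -0.15 ± 0.08. The SEs were thus larger with it, and the difference of Pecam1 stayed the same. The difference of Flt1 was thus nearly as large with the covariate as without it. Meningeal and vascular fibroblast markers were also lower at 10 months in 8 of 10 genes (median -0.55), red blood cell markers in 5 of 5 (median -0.61) and astrocyte markers in 7 of 8 (median -0.18). Their part in the result was not tested.

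The other vascular gene lists were described by counts, to be read against the 29.7% of all genes called higher and 32.1% called lower at 10 months. Of 20 further endothelial surface and secreted genes, 10 were called higher and 3 lower at 10 months (median log2 difference 0.15), with Robo4, a guidance receptor of endothelium, at 0.63 ± 0.06 (adjusted p = 8.7e-11, edgeR), Eng, a TGF-beta co-receptor, at 0.42 ± 0.05 (6.0e-09), and the sphingosine phosphate receptor S1pr1 at -0.23 ± 0.04 (2.1e-06). Of 16 endothelial transcription factors, 7 were called higher and 1 lower, led by Sox17 at 0.60 ± 0.08 (1.7e-07). The partners of Tek divided. Tie1, its co-receptor, and Ptprb, its phosphatase, were higher at 0.46 ± 0.06 (7.9e-08) and 0.31 ± 0.06 (2.0e-05), while the ligand Angpt1 was lower at -0.20 ± 0.08 (0.041). Of the 7 further VEGF ligands and receptors, Flt4 was higher at 0.56 ± 0.08 (1.1e-06) and Vegfc and Vegfb were lower at -0.33 ± 0.10 (0.0049) and -0.15 ± 0.05 (0.010). Among 12 further junction genes, 2 were higher and 7 lower (median -0.17), led by Cgnl1 at -1.14 ± 0.21 (3.7e-05), and among 16 further barrier transporters 4 were higher and 4 lower (median 0.05), shares below those over all genes, with Slco1c1, a thyroid hormone carrier, at -0.68 ± 0.09 (3.1e-07) and Slc7a5, a large amino acid carrier, at 0.30 ± 0.05 (1.2e-06). Of 11 basement membrane genes, 4 were higher and 1 lower (median 0.04). The collagens Col4a1 and Col4a2 were higher at 0.64 ± 0.05 (2.2e-12) and 0.77 ± 0.06 (6.2e-12) and the nidogen Nid2 was lower at -0.96 ± 0.18 (4.1e-05). Over 38 mice, Cgnl1 had a median of 16.5 CPM and a highest value of 60.5 CPM, and Slco1c1 57.9 and 128 CPM. No result with the choroid plexus covariate is given for the genes of these lists or of those below. The part of the choroid plexus in their differences was not tested.

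The lists of signalling genes and neighbouring cells had members called in both directions, beside the same 29.7% higher and 32.1% lower over all genes. Of 13 genes of barrier WNT signalling, 4 were called higher and 6 lower at 10 months (median log2 difference -0.12), with the co-receptors Adgra2 at 0.41 ± 0.06 (adjusted p = 4.2e-07, edgeR) and Reck at 0.39 ± 0.08 (0.00021) and the receptor Fzd4 at -0.51 ± 0.11 (0.00028). Of 11 genes of transcytosis and amyloid transport, 3 were higher and 3 lower (median -0.09), near the shares over all genes, with the insulin receptor Insr at 0.23 ± 0.02 (7.6e-11) and the transferrin receptor Tfrc at -0.16 ± 0.04 (0.0031). Of 7 tested genes of endothelial activation, 1 was higher and 2 lower, among them the adhesion molecule Vcam1 at -0.51 ± 0.09 (9.6e-06). Of 11 pericyte markers, 4 were higher and 1 lower (median 0.11), led by Notch3 at 0.79 ± 0.08 (1.9e-10), and of 7 smooth muscle markers 2 were higher and 1 lower.

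Genotype called few genes of these lists. Those called over the 38 mice included Slco2b1, an organic anion carrier, at 0.20 ± 0.04 (adjusted p = 0.0076, edgeR), and Ndp, the norrin ligand of barrier WNT signalling, at -0.15 ± 0.04 (0.085). In APPPS1ΔE9 mice of 6 months, anle138b against placebo called Plvap, a fenestral protein of leaky vessels and of choroid plexus vessels, at 0.67 ± 0.10 (0.053), where 3 of 4 mice on anle138b and 1 of 4 on placebo had at least 1000 CPM of choroid plexus markers. In the same 38-mouse contrast 5 of 8 microglia markers rose with genotype (median 0.26), C1qa most with 0.56 ± 0.07 (5.1e-06). Slco2b1 is also known to be expressed by microglia, and the part of microglia in its difference was not tested.

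The next question was whether the 10 genes varied together between mice of the same group. After each group's mean was taken away, Pearson's r of log2 CPM over 38 mice was positive in 38 of the 45 pairs, with a median of 0.25 and a range from -0.20 to 0.73. In a permutation test that shuffled mice within groups, 13 of the 45 pairs passed an adjusted p under 0.1, all of them positive. Abcb1a with Cldn5, Pecam1 and Tek, Slco1a4 with Tek, and Pecam1 with Slc2a1 missed it barely, at 0.1009 to 0.1011. By Spearman's rho these pairs passed, except Pecam1 with Slc2a1 (permutation adjusted p = 0.17). These mice share their library for both genes, so depth and the share of vessels in the tissue piece enter every pair.

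The closest pair was Slco1a4 and Abcb1a, both pumps or carriers of the vessel wall, with r = 0.73 and Spearman's rho = 0.83 (permutation p = 2e-05, adjusted p = 0.0009; for rho 1e-05, the smallest the permutations can give, and 0.00045). Without the 2 mice farthest from the median of Slco1a4, r was 0.77, and it was 0.72 in the 16 mice of 6 months and 0.73 in the 22 mice of 10 months. Cldn5 and Cdh5, the tight and the adherens junction gene, had r = 0.61 and rho = 0.60 (permutation p = 8e-05 and 0.0003, adjusted p = 0.0018 and 0.0067). For this pair r was 0.58 without the 2 mice farthest from the median of Cldn5. Pecam1 with Slco1a4 (r = 0.64, rho = 0.56, permutation adjusted p = 0.014 and 0.028), Flt1 with Slco1a4 (r = 0.59, rho = 0.49, 0.0082 and 0.031) and Pecam1 with Flt1 (r = 0.59, rho = 0.42, 0.014 and 0.060) followed. Without the 2 mice farthest from the median of the gene named first in each pair, r was 0.49, 0.47 and 0.40. Pecam1 and Cdh5 each took part in 5 of the 13 pairs and Slco1a4 in 4.

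**Figure D4:**
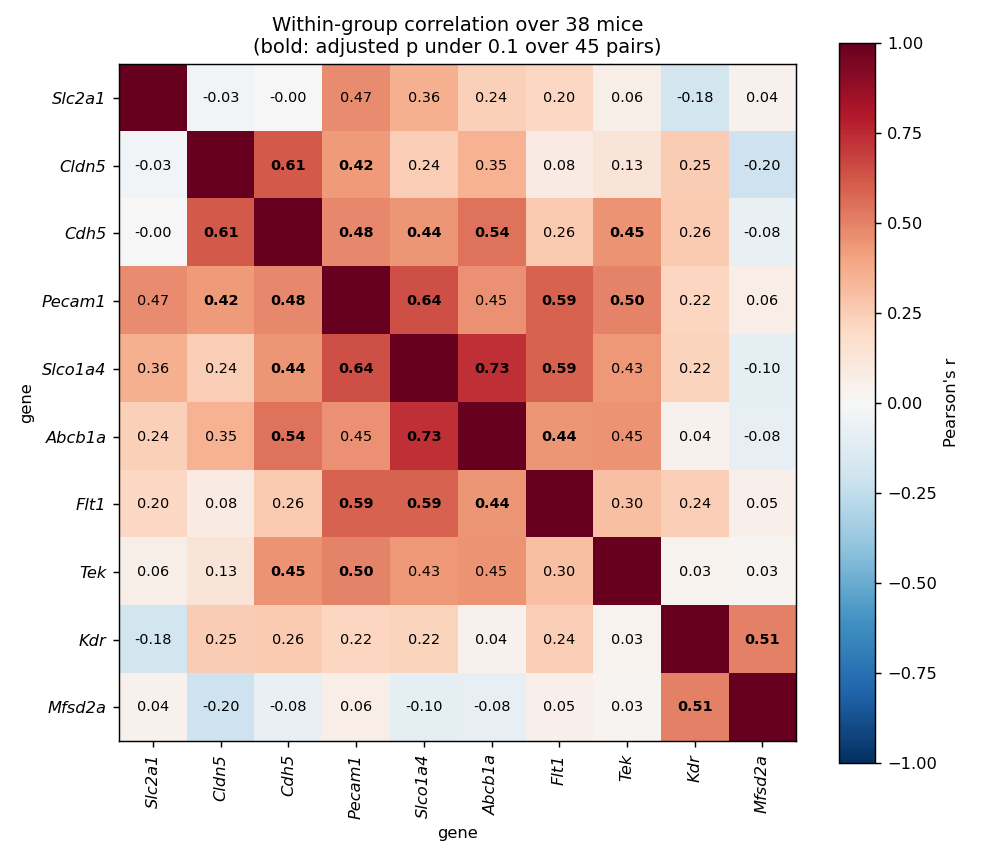
Pearson's r of each pair of the 10 genes over 38 mice after subtracting group means (colour and number, rows and columns are genes); bold numbers mark a permutation adjusted p under 0.1 over 45 pairs. Slco1a4 and Abcb1a reach 0.73, Kdr and Mfsd2a pair with each other at 0.51, and the row of Slc2a1 has no bold number.

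Slc2a1 was in 0 of the 13 pairs, with a median r of 0.06 to the other 9 genes. It came closest with Pecam1 (r = 0.47, rho = 0.33, permutation adjusted p = 0.101 and 0.17). The pairs of Slc2a1 differed between the ages. With Abcb1a, r was -0.58 in the 16 mice of 6 months and 0.65 in the 22 mice of 10 months, with Pecam1 0.15 and 0.64, and with Slco1a4 -0.07 and 0.54. Among the mice of 6 months, WT mouse 39 on anle138b lay farthest above its group mean in Slc2a1 (0.40 on the log2 scale). The same mouse lay farthest below it in Abcb1a (-0.46). The values of 6 months were not computed without this mouse, and the difference between the ages was not tested. Over both ages, r with Abcb1a was 0.52 without the 2 mice farthest from the median of Abcb1a. With Pecam1 it was 0.52 without the 2 mice farthest from the median of Pecam1. Mfsd2a had a median r of 0.03, and its 1 pair past the threshold was with Kdr (r = 0.51, rho = 0.50, permutation p = 0.0069 and 0.0062, adjusted p = 0.044 and 0.031). r of this pair was 0.52 without the 2 mice farthest from the median of Kdr, 0.42 at 6 months and 0.54 at 10 months. Kdr and Mfsd2a had r of -0.71 and -0.60 with hippocampal neuron markers and -0.635 and -0.67 with oligodendrocyte markers. With the 20 further endothelial genes they had 0.17 and -0.07, and with VEGF ligands and receptors 0.65 and 0.55. The part of tissue composition in this pair was not tested. Kdr in turn had no other pair past the threshold, and its r with Flt1 was 0.24 (rho = 0.20, permutation adjusted p = 0.30 and 0.40). When the 2 mice farthest from the median of the mean over the 10 genes were left out, 7 of the 45 pairs passed the threshold.

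**Figure D5:**
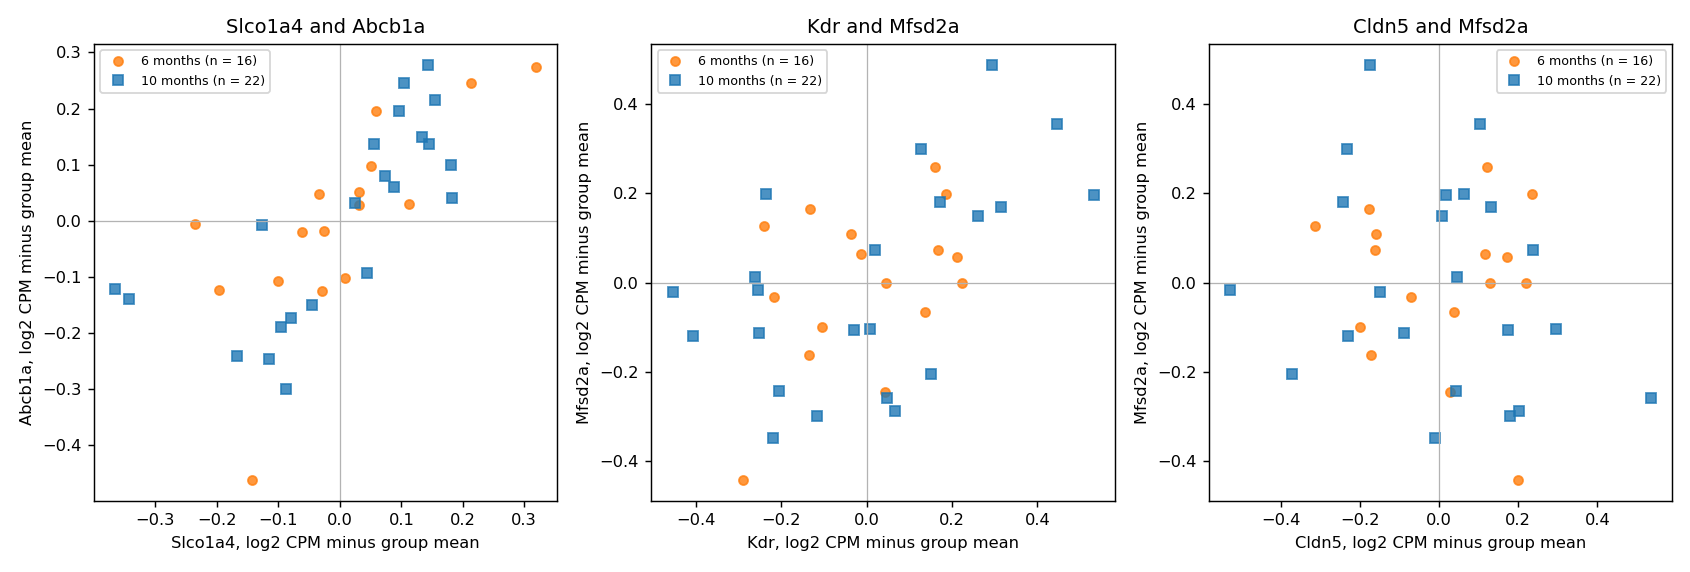
Log2 CPM minus the group mean of a gene (x axis) against that of another (y axis) for 3 pairs, 1 point per mouse, 16 mice of 6 months (circles) and 22 of 10 months (squares). Slco1a4 and Abcb1a rise together (r = 0.73), Kdr and Mfsd2a less tightly (r = 0.51), and Cldn5 and Mfsd2a show no shared course (r = -0.20).

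As a description, r with the mean of the 10 genes was taken over 38 mice for 14986 genes (mean CPM of at least 1). The 10 with the highest r were Ptprb (0.78), Cd93 (0.69), Eng (0.69), Rpl9 (0.68), Itih5 (0.68), Flt4 (0.67), Tns2 (0.66), Sox17 (0.66), Egfl7 (0.66) and F13a1 (0.65). Of these, Ptprb, Cd93, Eng, Flt4, Sox17 and Egfl7 are known endothelial genes, F13a1 was listed here as a border macrophage marker, and Rpl9 is a ribosomal protein. The mean of 20 further endothelial genes had r = 0.80 with the mean of the 10, pericyte markers 0.70, angiopoietin and TIE genes 0.65, border macrophage markers 0.63, vascular fibroblast and meningeal markers 0.50, astrocyte markers 0.45, choroid plexus markers 0.06, microglia markers -0.03 and hippocampal neuron markers -0.25. Of the other vascular lists, barrier transporters were at 0.72, endothelial transcription factors at 0.67 and barrier WNT signalling genes at 0.51. Values below those of the fibroblast and astrocyte lists were 0.445 for transcytosis and amyloid transport and 0.41 for smooth muscle markers. Basement membrane followed at 0.34, endothelial activation and junction genes both at 0.28, and VEGF ligands and receptors at 0.20.

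The neighbours of single genes differed. The gene closest to Pecam1 and to Slco1a4 was the endothelial phosphatase Ptprb (r = 0.74 and 0.79), the gene closest to Abcb1a was Sox17 (0.77), and those closest to Flt1 were Adgrf5 (0.71) and Cyyr1 (0.65). Kdr had 167 genes with r of at least 0.7, more than any of the other 9 genes, led by Tnfaip8 (0.82), the epithelial junction gene Cgn (0.82) and Lpar2 (0.82). Cgn was on the list of junction genes and the others were on no list. Kdr itself had r = -0.71 with hippocampal neuron markers, as given above, and the part of tissue composition in its neighbours was not tested. Mfsd2a had 29 such genes, led by Sema4b (0.77) and Adgrg1 (0.76), and Cdh5 had 15, led by Slc7a11 (0.76), Myoc (0.75) and the meningeal marker Aldh1a2 (0.75). Slc2a1 was closest to Nfkbia (0.72). The other genes had 0 to 8. These neighbours are a description without a test, chosen after the values were seen.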

How the data were processed

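The data are gene counts of 38 hippocampal libraries, 1 per mouse, in 8 groups. The authors aligned the reads to the mm10 mouse genome with STAR, counted reads per Ensembl gene with HTSeq and deposited raw counts for each library. The annotation release and whether counting used strand are not given in the sources used here. Gene symbols came from GENCODE for 48349 of 48709 genes. Total counts per library were between 15847985 and 31895808, which gave a counting error of 2.28% to 5.95% for the 10 genes. The genes and all lists were chosen with earlier results of these data known.

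Counts were tested with edgeR 4.0.16 (R 4.3.3) by the quasi-likelihood test after filterByExpr (minimum count 10, minimum total count 15) and TMM normalization, with Benjamini-Hochberg adjustment over all genes and a threshold of 0.1. Each pair of groups was fitted alone, interactions on 4 groups, and the 38-mouse contrasts on 8 group means. The script was checked on simulated counts. Correlations used log2 CPM (prior count 2) minus the group mean, with 100000 permutations within groups. All 10 genes were named in every comparison, of each other list up to 4 genes past the threshold with the smallest p, and the 10 genes most like the mean of the 10. Alternatives were DESeq2 1.42.0, RLE size factors, no filter, a threshold of 0.05, Y-linked expression as a covariate, the replicate number as a block, all 4 groups of an age together, lane as a term, the longest transcript as length and leaving out each mouse. The choroid plexus covariate, the age difference within each combination of genotype and chow, and the genes most like each single gene were added after seeing the data. Library titles of the 4 WT placebo mice of 6 months set their group. Nothing in the labels says that libraries of a group share an animal, and p-values measure the spread between these libraries. In the 75 pairs of libraries within a group, a chi-square test of the counts gave at least 3.05 times its degrees of freedom, more than sampling noise; pairs across groups were not compared. In no comparison did every same-numbered pair of mice correlate above 0.1, a rule that cannot exclude a pairing. In WT mice, anle138b against placebo, the mean r of such pairs was 0.39 at 6 months and 0.42 at 10 months. The highest were 0.69 and 0.76. In the other comparisons the mean r lay between -0.38 and 0.22. Mice were not paired in the main fits, and the replicate number as a block was an alternative. A result for 1 further listed gene is not reported here.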

Additional observations from a re-analysis of the deposited data

Results flagged for a closer look

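In 3 of 80 sets of mice (a gene in a group), 1 mouse stood farther from the rest than Dixon's test allows, and chance flags about 1 set in 20. Pecam1 in WT placebo mice of 10 months was lowest at 15.4 CPM in mouse 55, while the other 4 mice lay between 18.5 and 19.6 CPM. Abcb1a in APPPS1ΔE9 placebo mice of 6 months was lowest at 22.1 CPM in mouse 17, while the other 3 lay at 24.6 CPM or above. Tek in the same group was lowest at 11.5 CPM in mouse 74, while the other 3 lay near 14.4 CPM.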

How the results depend on the processing

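In the 8 comparisons of 2 groups, the 3 interactions and the chow contrast over 38 mice, 0 of the 10 genes were called under every setting run, each left-out mouse included. The genotype contrast over 38 mice called 0 to 1 genes when a mouse was left out, the 1 being Flt1 without replicate 3 of WT anle138b or of WT placebo at 6 months. The age contrast called 9 genes, 6 to 9 when a mouse was left out and 5 with choroid plexus markers as a covariate. With the replicate number as a block it called 7, losing Pecam1 (adjusted p = 0.11) and Cdh5 (0.12), and the block changed no other count of the 10 genes. For the age contrast, 61.8% of all genes were called in the main fit, and the shares under the other settings are not given here. Of the 45 pairs of genes, 13 passed the threshold, 14 with RLE size factors and 7 without the 2 mice farthest from the median. No direction of a called value reversed.

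Counts over all genes moved more. For genotype at 6 months on placebo, 12 genes were called, against 89 by DESeq2, 110 without the filter, 35 with 4 groups in 1 fit and 4 with the Y-linked covariate. On anle138b 8 were called, against 42 by DESeq2 and 13 with the block. At 10 months, 55 were called on placebo, against 113 by DESeq2, 14 with the Y-linked covariate, 25 with the block and 31 with the choroid plexus covariate, and 124 on anle138b, against 188, 272 and 20 with the first 3 of these and 77 at a threshold of 0.05. For chow in APPPS1ΔE9 mice of 6 months 9 were called, against 205 by DESeq2, 120 without the filter, 94 with the Y-linked covariate, 5 with the choroid plexus covariate and 3 with 4 groups in 1 fit. Where edgeR called 0, DESeq2 called 2 to 28 in 5 comparisons. DESeq2 gave no adjusted p for Cdh5 in the interaction at 6 months. The causes were not tested.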
